A study of Homo sapiens with 9 samples.

Results

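The genes described here are 10 ERK output and feedback genes of A431 cells, chosen by name from the deposited table of 58051 genes: the phosphatases DUSP4, DUSP5 and DUSP6, the inhibitors SPRY2, SPRY4 and SPRED1, and the transcription factors ETV4, ETV5, FOSL1 and EGR1. They were chosen with earlier results of these data known, so their counts beside the shares of all genes are description only. All 10 passed the filter on low counts that left 14513 genes for testing. A431 is an epidermoid carcinoma cell line that carries endogenous mutant p53 and is known for very high EGFR. RNA was sequenced from 3 groups of 3 libraries each: unedited parental cells, Ctrl cells (labelled p53 ctrl), a stable line made with an empty vector CRISPR construct that keeps mutant p53, and p53 KO cells, a stable line made with a CRISPR construct against p53. All groups were grown in the same serum-containing medium. According to the labels cells were grown as single colonies, so each line may descend from 1 cell. No source states that the 3 libraries of a group came from separate cultures, so p-values measure the spread between libraries, which may be technical. Whether a difference comes from loss of p53 or from the line that was picked cannot be told apart. This holds also for genes that passed against both controls, since both comparisons use the same p53 KO libraries.

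In the ERK pathway, an activated receptor such as EGFR switches on RAS, which activates the kinases RAF, MEK and ERK in turn. ERK moves to the nucleus and switches on immediate-early genes such as EGR1, and then the genes of its own inhibitors. The DUSP phosphatases remove the activating phosphates from ERK, while Sprouty and SPRED proteins act upstream, between the receptor and RAF, so that the RNA of these genes is often read as a sign of how strongly ERK is signalling. RNA was measured here, and ERK activity was not.

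Counts on genes ranged from 19783778 to 29840452 per library, and levels are given as CPM, counts per 1000000 after TMM normalisation of library size. Of 6 squamous keratinocyte markers, KRT14 had at most 0.436 CPM in any library and the other 5 were expressed, with summed levels from 1275 to 1319 CPM in parental, from 1452 to 1510 CPM in Ctrl and from 1449 to 1469 CPM in p53 KO libraries. The leukocyte markers PTPRC and CD3E, the fibroblast markers COL3A1 and THY1 and the endothelial marker KDR had 0 counts everywhere. Over their whole lists, the 5 leukocyte markers summed to at most 1.64 CPM, the 5 fibroblast markers to at most 4.42 CPM and the 4 endothelial markers to at most 1.16 CPM in any library. Ctrl replicate 1 stood apart from its group. The chi-square per degree of freedom between its counts and those of the other Ctrl libraries was 39.4 and 51.8, against 9.58 between those 2 and between 5.35 and 16.4 within the other groups. Values without it are given where they changed a call or moved by over 1.5 times.

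Promoter sequences were at hand for EGR1, DUSP6, SPRY2, SPRY4 and SPRED1 (RefSeq, GRCh38.p14). The first 3 are shown because they are the genes of this group that passed the test against both controls and have a sequence, EGR1 toward lower and DUSP6 and SPRY2 toward higher RNA in p53 KO cells. Each run covers the 250 bases before the annotated start, 5′ to 3′ on the strand of the gene, at chr5:138465229-138465478 (plus strand) for EGR1, chr12:89352502-89352751 (minus strand) for DUSP6 and chr13:80341127-80341376 (minus strand) for SPRY2. Capitals mark CArG boxes, the sites bound by serum response factor (SRF), and the ETS motif CCGGAA.
EGR1: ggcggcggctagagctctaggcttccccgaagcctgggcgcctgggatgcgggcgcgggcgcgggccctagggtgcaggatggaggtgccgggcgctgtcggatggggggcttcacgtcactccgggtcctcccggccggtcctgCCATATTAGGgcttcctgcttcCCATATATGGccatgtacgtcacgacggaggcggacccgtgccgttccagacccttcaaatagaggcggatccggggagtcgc
DUSP6: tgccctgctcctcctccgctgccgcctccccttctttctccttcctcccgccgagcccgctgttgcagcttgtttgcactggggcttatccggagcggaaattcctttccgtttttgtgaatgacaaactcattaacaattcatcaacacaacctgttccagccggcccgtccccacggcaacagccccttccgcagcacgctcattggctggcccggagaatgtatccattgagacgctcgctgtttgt
SPRY2: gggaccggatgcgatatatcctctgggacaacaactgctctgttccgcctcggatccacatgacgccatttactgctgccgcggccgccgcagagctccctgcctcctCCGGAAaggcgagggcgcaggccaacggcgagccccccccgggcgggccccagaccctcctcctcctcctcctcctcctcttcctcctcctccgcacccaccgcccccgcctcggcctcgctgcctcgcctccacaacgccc
EGR1 held 2 CArG boxes, beginning 105 and 83 bases before the start, and among all 35116 RefSeq promoter windows of this length 1.16% held at least 1 on either strand. SPRY2 held 1 ETS motif, CCGGAA, on either strand, which 14.5% of all windows held. Neither these letters nor the AP-1 motif TGANTCA (6.57% of all windows), the cyclic AMP response element TGACGTCA (1.65%), the EGR motif GCGTGGGCG (0.720%), the TATA box TATAAA (10.7%) or a p53 half-site (5.57%) were found in the windows of DUSP6, SPRY4 and SPRED1. The motifs were searched on both strands, matches may overlap, and a match is only a string of letters and not a measured binding site.

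Compared per length, as CPM per kilobase of exon sequence in GENCODE 44, the 10 genes covered a wide range. In parental cells FOSL1 was highest at 133 ± 8.49 CPM per kb (SD, n = 3), followed by EGR1 at 34.6 ± 2.89 (SD, n = 3). DUSP5 at 9.39, ETV4 at 7.90, SPRED1 at 4.85, ETV5 at 3.96, DUSP6 at 2.59, DUSP4 at 1.93 and SPRY4 at 1.45 CPM per kb followed, and SPRY2 was lowest at 0.239 ± 0.0553 (SD, n = 3). No 2 neighbours in this order overlapped between parental libraries. In Ctrl cells the order was the same except that DUSP4 (1.48 CPM per kb) stood above DUSP6 (1.25), and the libraries of this pair overlapped. In p53 KO cells DUSP6 (4.15 CPM per kb) and DUSP4 (3.34) both stood above ETV5 (2.97), and DUSP6 overlapped with SPRED1 (4.48). The plot of CPM per library shows every value.

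**Figure D1:**
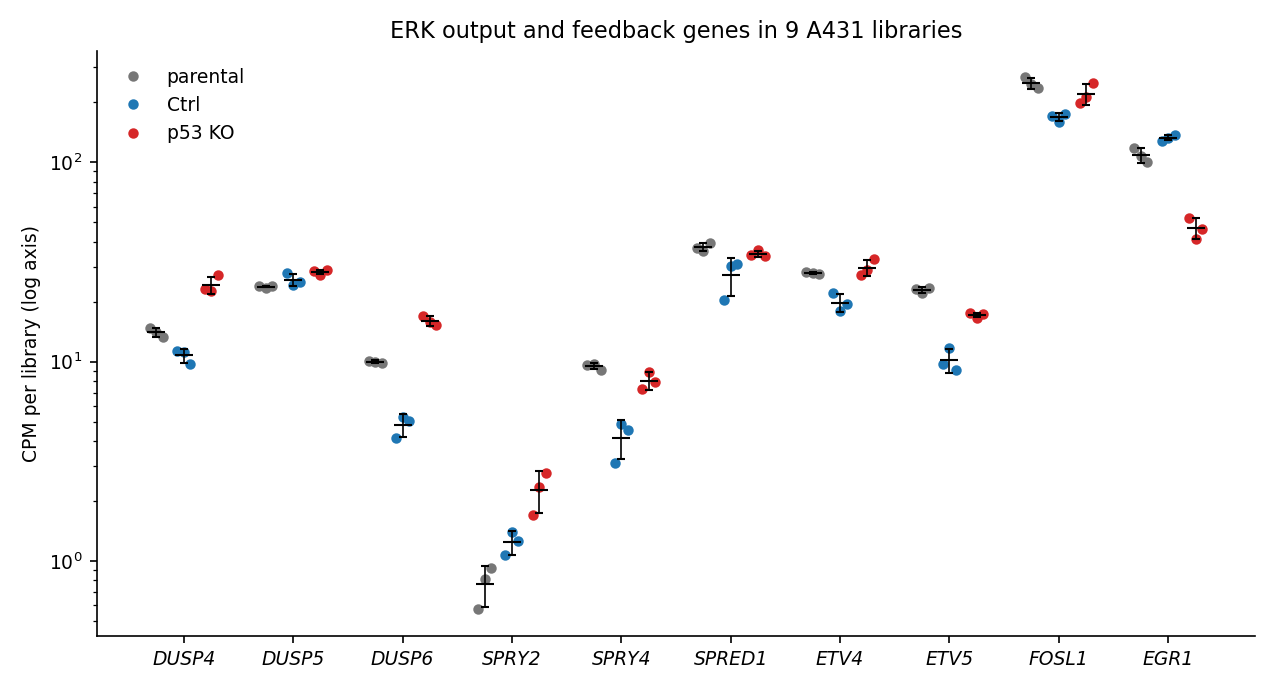
CPM in each library (log axis) of the 10 genes, with grey points for parental, blue for Ctrl and red for p53 KO cells, horizontal bars for the mean and vertical bars for the SD of 3 libraries. EGR1 is lowest and DUSP4, DUSP6 and SPRY2 are highest in the p53 KO libraries. DUSP4, DUSP6, SPRY4, SPRED1, ETV4, ETV5 and FOSL1 are lowest in the Ctrl libraries.

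Loss of p53 was studied against 2 controls, and genes changed against both are the ones the study looked for. Of the 10 genes, 4 passed the test in the same direction against both controls. In bulk RNA, fewer expressing cells and less RNA per cell cannot be told apart. DUSP4, DUSP6 and SPRY2 were higher and EGR1 was lower in p53 KO cells. Of all genes tested, 11.7% did so, 6.46% toward higher and 5.25% toward lower expression. The test was edgeR's quasi-likelihood test on all 9 libraries with Benjamini-Hochberg adjustment over all 14513 genes, and a gene passed when its adjusted p did not exceed 0.05. SE denotes the standard error of a log2 fold change. Both comparisons share the p53 KO libraries.

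Against parental cells 5 of the 10 genes passed the test, where 18.1% of all genes did. Those toward higher expression were DUSP4, DUSP6 and SPRY2 (9.77% of all genes passed in this direction) and those toward lower expression ETV5 and EGR1 (8.36%). The median log2 fold change of the 10 genes was -0.01, beside 0.01 over all genes tested. Libraries of p53 KO and parental cells did not overlap for 7 of the 10 genes, and for 47.4% of all genes. Against Ctrl cells 8 of the 10 genes passed (29.2% of all genes), 7 toward higher expression (15%) and EGR1 alone toward lower expression (14.2%), with a median log2 fold change of 0.67 beside 0.01 over all genes. Libraries did not overlap for 9 of the 10 genes, the exception being DUSP5, and for 40.4% of all genes. The study asked in addition for a log2 fold change above 1.5 or below -1.5. By that rule SPRY2 passed against parental cells, as did 1.95% of all genes (1.23% toward higher and 0.717% toward lower expression). DUSP6 and EGR1 passed against Ctrl cells, as did 3.29% of all genes (2.18% and 1.11%).

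Ctrl cells, which keep mutant p53, differed from parental cells as well. Of the 10 genes 7 passed, all toward lower expression in Ctrl cells, namely DUSP4, DUSP6, SPRY4, SPRED1, ETV4, ETV5 and FOSL1. Of all genes 20.3% passed in either direction and 9.69% toward lower expression. Their median log2 fold change was -0.48, beside 0.00295 over all genes, and Ctrl and parental libraries did not overlap for any of the 10 genes (43.9% of all genes). DUSP5, SPRY2 and EGR1 lay above parental cells in all 3 Ctrl libraries without passing. The edgeR test called 0 of the 10 toward higher expression (10.6% of all genes), while 2 had an unadjusted p-value under 0.05 and DESeq2 called 1. The largest change of the 10 was -1.17, so that none reached the study's added threshold of 1.5, which 1.94% of all genes passed (0.668% toward higher and 1.27% toward lower expression). Leaving out Ctrl replicate 1 gave 8 genes, with EGR1 added toward higher expression. The plot of log2 fold changes sets the 3 comparisons side by side.

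**Figure D2:**
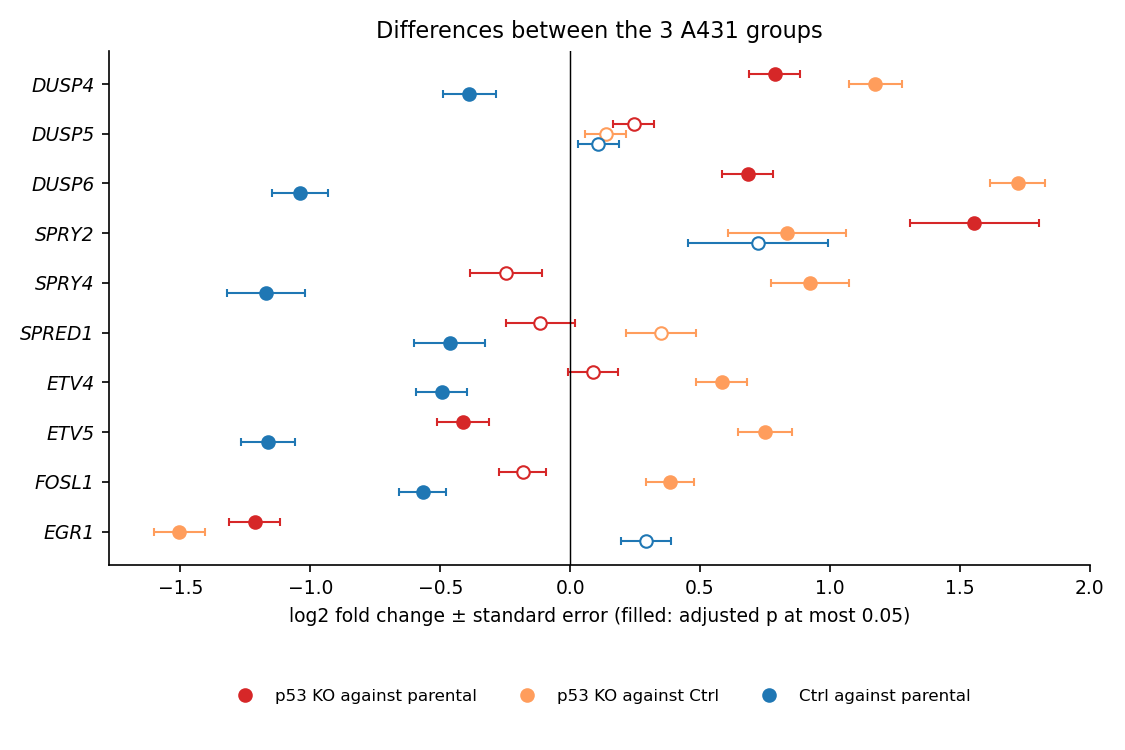
Log2 fold changes (horizontal axis) with standard errors of the 10 genes in the 3 comparisons, filled where the adjusted p-value was at most 0.05. Blue points for Ctrl against parental cells lie left of 0 for 7 genes, and EGR1 is the gene for which both p53 KO comparisons lie far left of 0, at -1.21 and -1.51.

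DUSP6 (ENSG00000139318, chromosome 12 from 89347235 to 89352501) codes for a cytoplasmic phosphatase that acts chiefly on ERK. It had 10.1, 10.0 and 9.83 CPM in the parental libraries, 4.13, 5.30 and 5.03 CPM in the Ctrl libraries and 17.0, 15.9 and 15.2 CPM in the p53 KO libraries. The 3 groups formed separate steps, with Ctrl lowest and p53 KO highest. The p53 KO to parental difference was 0.68 on the log2 scale (SE 0.10, edgeR adjusted p = 0.000864), which is 1.61-fold. The p53 KO to Ctrl difference was 1.72 (SE 0.11, edgeR adjusted p = 1.25e-06), which is 3.30-fold. The Ctrl to parental difference was -1.04 (SE 0.11, edgeR adjusted p = 0.000117), so that the larger difference from Ctrl cells holds both a rise from and a fall below the parental level. DUSP6 is among the genes that the study listed as changed on these same libraries, so its change is not independent evidence.

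DUSP4 (ENSG00000120875, chromosome 8 from 29333064 to 29350684) codes for a nuclear phosphatase of ERK and related kinases. It had 14.7, 14.2 and 13.3 CPM in the parental, 11.4, 11.2 and 9.76 CPM in the Ctrl and 23.2, 22.7 and 27.1 CPM in the p53 KO libraries. As with DUSP6 the groups did not overlap and Ctrl was lowest. On the log2 scale p53 KO differed from parental by 0.79 (SE 0.10, edgeR adjusted p = 0.000381) and from Ctrl by 1.17 (SE 0.10, edgeR adjusted p = 1.28e-05). Ctrl differed from parental by -0.39 (SE 0.10, edgeR adjusted p = 0.0246). This last call was lost, with adjusted p-values from 0.0504 to 0.0956, when parental replicate 1 or 2 or Ctrl replicate 2 or 3 was left out.

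DUSP5 (ENSG00000138166, chromosome 10 from 110497907 to 110511533) codes for a nuclear phosphatase specific for ERK. It had between 23.5 and 24 CPM in parental, between 24.3 and 27.7 CPM in Ctrl and between 27.3 and 28.8 CPM in p53 KO libraries. All p53 KO libraries lay above the parental ones, and they overlapped with Ctrl. The log2 fold change of 0.24 relative to parental libraries (SE 0.08, edgeR adjusted p = 0.0529) missed the threshold, and was also 0.24 with an adjusted p-value of 0.0109 when Ctrl replicate 1 was left out. This change also passed with DESeq2 (adjusted p = 0.0403) and with only the 2 groups compared (edgeR adjusted p = 0.0145). The other 2 comparisons gave 0.14 for p53 KO against Ctrl cells (edgeR adjusted p = 0.221) and 0.11 for Ctrl against parental cells (edgeR adjusted p = 0.331), the latter moving to 0.0503 without Ctrl replicate 1.

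SPRY2 (ENSG00000136158, chromosome 13 from 80335976 to 80341126) codes for a Sprouty protein, an inhibitor of signalling from receptor tyrosine kinases to ERK. It was the least abundant of the 10, with 15, 21 and 20 counts in the parental, 21, 40 and 33 counts in the Ctrl and 51, 62 and 56 counts in the p53 KO libraries. These counts are 0.574, 0.807 and 0.922 CPM in parental, 1.07, 1.41 and 1.26 CPM in Ctrl and 1.71, 2.36 and 2.78 CPM in p53 KO libraries. Parental was lowest, Ctrl in between and p53 KO highest, without overlap. On the log2 scale p53 KO was higher than parental by 1.56 (SE 0.25, edgeR adjusted p = 0.00150) and higher than Ctrl by 0.83 (SE 0.23, edgeR adjusted p = 0.0175). Without p53 KO replicate 2 the latter was 0.80 (edgeR adjusted p = 0.0599) and without p53 KO replicate 3 it was 0.68 (edgeR adjusted p = 0.0591). From parental to Ctrl the log2 fold change was 0.72 (SE 0.27, edgeR adjusted p = 0.0806), the opposite sign to SPRY4.

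SPRY4 (ENSG00000187678, chromosome 5 from 142310427 to 142326455), a second Sprouty gene, had 9.68, 9.69 and 9.13 CPM in the parental, 3.11, 4.85 and 4.54 CPM in the Ctrl and 7.28, 8.90 and 7.89 CPM in the p53 KO libraries. Ctrl was lowest, and p53 KO lay below parental in all libraries. The step from parental to Ctrl was -1.17 on the log2 scale (SE 0.15, edgeR adjusted p = 0.000410). The p53 KO cells differed from Ctrl by 0.92 (SE 0.15, edgeR adjusted p = 0.000868) and from parental by -0.25 (SE 0.14, edgeR adjusted p = 0.255).

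SPRED1 (ENSG00000166068, chromosome 15 from 38252836 to 38357249) codes for a relative of the Sprouty proteins that brings neurofibromin, a RAS inactivator, to the membrane. It ranged from 36.1 to 39.5 CPM in parental and from 33.7 to 36.3 CPM in p53 KO libraries, and had 20.3, 30.1 and 31.0 CPM in the Ctrl libraries, with replicate 1 lowest. The log2 fold change of Ctrl against parental cells was -0.46 (SE 0.14, edgeR adjusted p = 0.0349) and moved to -0.30 (adjusted p = 0.0112) when Ctrl replicate 1 was left out. That call was lost, with adjusted p-values from 0.0510 to 0.107, when any parental library or p53 KO replicate 1 or 2 was left out. The same call was lost with only the 2 groups compared and with the replicate number fitted as a block. Between p53 KO and Ctrl the difference was 0.35 (SE 0.14, edgeR adjusted p = 0.0757), and it was 0.18 (adjusted p = 0.0691) without Ctrl replicate 1 and 0.45 (adjusted p = 0.0359) without Ctrl replicate 3. With no filter beyond 1 count the p53 KO to Ctrl difference passed as well. Between p53 KO and parental the difference was -0.11 (edgeR adjusted p = 0.599).

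ETV5 (ENSG00000244405, chromosome 3 from 186046314 to 186110318) and ETV4 (ENSG00000175832, chromosome 17 from 43527844 to 43579620) code for related ETS factors that are switched on by ERK signalling. ETV5 had 23.1, 22.0 and 23.5 CPM in the parental, 9.69, 11.8 and 9.07 CPM in the Ctrl and 17.5, 16.6 and 17.4 CPM in the p53 KO libraries. The p53 KO libraries lay between the other 2 groups without overlap. On the log2 scale p53 KO differed from parental by -0.41 (SE 0.10, edgeR adjusted p = 0.0147) and from Ctrl by 0.75 (SE 0.10, edgeR adjusted p = 0.000292). The former call was lost, with adjusted p-values from 0.0569 to 0.0607, when parental replicate 1, parental replicate 3 or p53 KO replicate 2 was left out. ETV5 fell from parental to Ctrl cells by 1.16 on the log2 scale (SE 0.10, edgeR adjusted p = 3.64e-05), a 2.24-fold difference.
ETV4 ranged from 27.5 to 28.1 CPM in parental, from 17.9 to 22.0 CPM in Ctrl and from 27.2 to 32.6 CPM in p53 KO libraries. Parental and p53 KO libraries overlapped and all Ctrl libraries lay below both. Its log2 fold change was 0.09 for p53 KO against parental cells (edgeR adjusted p = 0.577), 0.58 for p53 KO against Ctrl cells (edgeR adjusted p = 0.00114) and -0.49 for Ctrl against parental cells (edgeR adjusted p = 0.00646). The first of these values moved with single libraries, to 0.14 without p53 KO replicate 1 and 0.0107 without p53 KO replicate 3.

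FOSL1 (ENSG00000175592, chromosome 11 from 65892049 to 65900573) codes for FRA1, a partner of JUN proteins in the AP-1 factor. It ranged from 235 to 267 CPM in parental, from 160 to 175 CPM in Ctrl and from 199 to 250 CPM in p53 KO libraries. The pattern was that of ETV4, with parental and p53 KO overlapping and Ctrl below both. Its log2 fold change was -0.18 for p53 KO against parental cells (edgeR adjusted p = 0.194), 0.38 for p53 KO against Ctrl cells (edgeR adjusted p = 0.00840) and -0.57 for Ctrl against parental cells (edgeR adjusted p = 0.00179). Relative to parental libraries the value was -0.12 without p53 KO replicate 1 and -0.29 without p53 KO replicate 3.

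EGR1 (ENSG00000120738, chromosome 5 from 138465479 to 138469303) codes for a zinc finger factor that is induced within minutes of ERK activation, largely through SRF and its ETS partners. It had 118, 107 and 100 CPM in the parental, 129, 133 and 137 CPM in the Ctrl and 52.7, 41.4 and 46.2 CPM in the p53 KO libraries. All p53 KO libraries lay below every other library, and Ctrl was highest. The p53 KO to parental difference was -1.21 on the log2 scale (SE 0.10, edgeR adjusted p = 2.05e-05), which is 2.32-fold lower. The p53 KO to Ctrl difference was -1.51 (SE 0.10, edgeR adjusted p = 1.77e-06), which is 2.84-fold lower. Like DUSP6, EGR1 is on the list of changed genes that the study drew from these libraries, and it too stayed under 1.5 in size against parental cells here. From parental to Ctrl it was 0.29 (SE 0.10, edgeR adjusted p = 0.0526), and it passed when p53 KO replicate 1 (0.29, adjusted p = 0.0458) or Ctrl replicate 1 (0.31, adjusted p = 0.0244) was left out. This step also passed with DESeq2 and with no filter beyond 1 count. EGR1 was the only one of the 10 genes that passed toward lower expression against both controls, in the same cells in which DUSP4, DUSP6 and SPRY2 passed toward higher expression.

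Genes beside each member on its chromosome were compared in the same way, as the median log2 fold change of the other tested genes within 10 Mb on either side with a mean log2 CPM above 2. For DUSP4 the 80 neighbours had a median of 0.47 in p53 KO against parental cells (77 of them above 0) and 0.51 against Ctrl cells, beside 0.79 and 1.17 for DUSP4 itself, and a median of -0.02 in Ctrl against parental cells. For DUSP5 all 86 neighbours were above 0 against parental cells, with a median of 0.48, and the median against Ctrl cells was 0.54. DUSP5, at 0.24 and 0.14, thus lay below the lower quartile of its neighbours, 0.32 and 0.36.
For ETV5 the 77 neighbours had a median of -0.29 against parental and -0.50 against Ctrl cells, with 11 and 12 of them above 0. ETV5 itself was at -0.41 against parental cells and at 0.75 against Ctrl cells, on the other side of 0 from its neighbours. For the other 7 genes the medians of the neighbours lay between -0.06 and 0.06 relative to parental and between -0.05 and 0.13 relative to Ctrl libraries. EGR1 had 95 neighbours with medians of 0.05 and 0.01, and DUSP6 had 34 with 0.00458 and 0.13. The part of these regional shifts in the changes of DUSP4, DUSP5 and ETV5 was not tested.

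**Figure D3:**
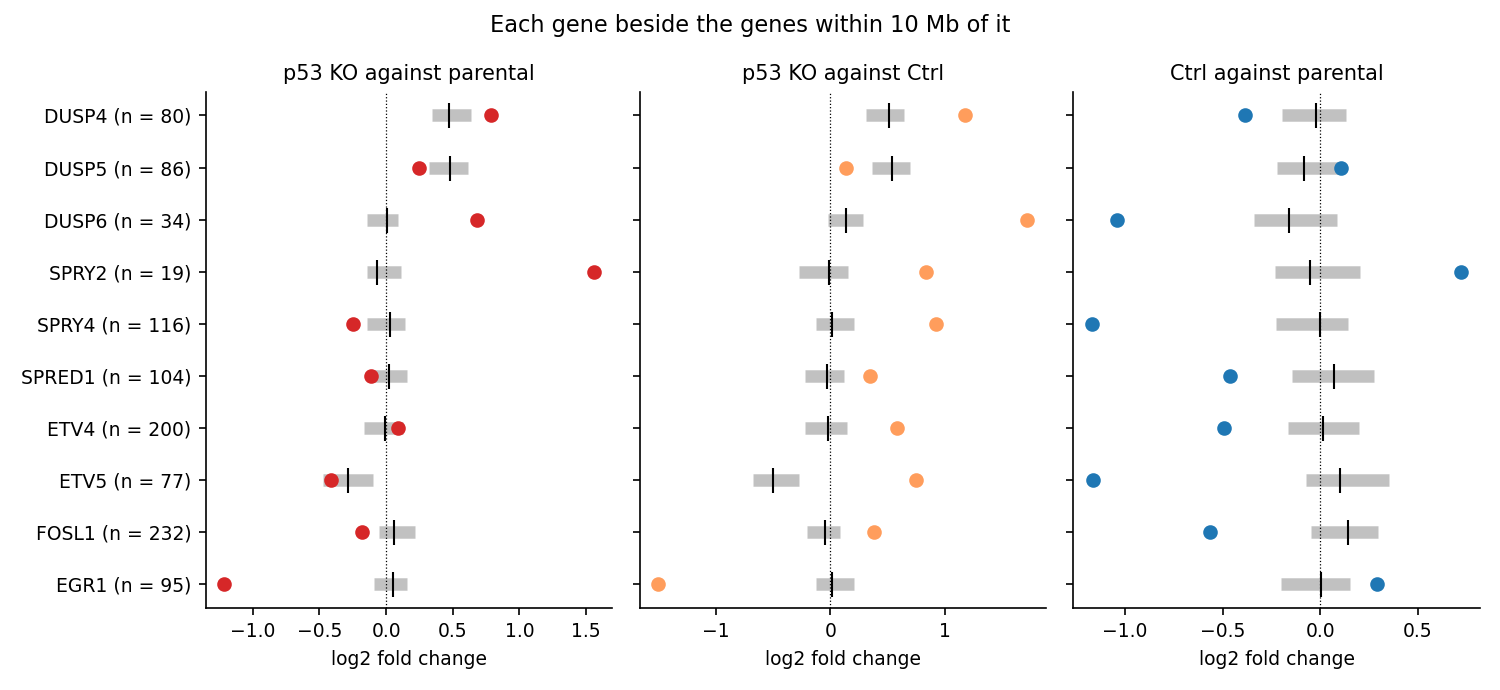
Log2 fold change (horizontal axis) of each of the 10 genes (coloured point) beside the median (black tick) and the middle 50% (grey bar) of the genes tested within 10 Mb, whose number is given as n. Neighbours of DUSP4 and DUSP5 are shifted to the right and those of ETV5 to the left in both p53 KO comparisons, while those of EGR1 and DUSP6 lie near 0.

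Other genes of the pathway were described in lists, and beside each count stand the shares of all genes tested given above (18.1% against parental, 29.2% against Ctrl and 20.3% in Ctrl against parental cells). Among EGFR family receptors and ligands 10 of 12 were tested. Against parental cells 1 passed toward higher and 2 toward lower expression, and against Ctrl cells 2 and 5, with medians of -0.20 and -0.36. Of those that passed against both controls, BTC (betacellulin, an EGFR ligand) was lower by log2 fold changes of -1.51 and -2.33 (edgeR adjusted p = 0.000689 and 1.18e-05). AREG (amphiregulin, another ligand) was lower, at -0.46 and -0.57 (edgeR adjusted p = 0.00925 and 0.00144). NRG1 (neuregulin 1, a ligand of ERBB3 and ERBB4) was higher, at 0.83 and 2.04 (edgeR adjusted p = 0.00730 and 1.73e-05).
EGFR itself had from 14357 to 17320 CPM in parental, from 8665 to 10999 CPM in Ctrl and from 13036 to 13743 CPM in p53 KO libraries. All Ctrl libraries were lowest, as for DUSP4, DUSP6, SPRY4, SPRED1, ETV4, ETV5 and FOSL1. Its log2 fold change was -0.65 for Ctrl against parental cells (SE 0.10, edgeR adjusted p = 0.00128), 0.42 for p53 KO against Ctrl cells (edgeR adjusted p = 0.00846) and -0.24 for p53 KO against parental cells (edgeR adjusted p = 0.126). The part of EGFR RNA in the lower levels of the 7 genes in Ctrl cells was not tested.

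All 19 genes of the RAS-RAF-MEK-ERK cascade were tested, and against parental cells 1 passed toward higher and 3 toward lower expression, and against Ctrl cells 3 and 3. RPS6KA2 (RSK3, a kinase activated by ERK) had 9, 9 and 4 counts in the parental, 9, 5 and 3 counts in the Ctrl and 121, 83 and 78 counts in the p53 KO libraries, with log2 fold changes of 3.61 and 3.97 (edgeR adjusted p = 2.90e-05 and 8.30e-06). RPS6KA2 passed the filter on low counts only through the p53 KO libraries, where it is high, so its values are description only. BRAF (a RAF kinase) was lower, at -0.72 and -0.66 (edgeR adjusted p = 0.0165 and 0.0157), and SHC1 (an adaptor of EGFR) at -0.23 and -0.21 (edgeR adjusted p = 0.0298 and 0.0329). Of 8 RAS GTPase-activating proteins tested, 2 passed toward higher expression against parental cells, and 1 toward higher and 1 toward lower against Ctrl cells. RASAL1 passed against both, with 40, 46 and 31 counts in the parental, 6, 5 and 6 counts in the Ctrl and 121, 97 and 90 counts in the p53 KO libraries and log2 fold changes of 1.36 and 4.12 (edgeR adjusted p = 0.000243 and 5.11e-07).

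Of 5 other feedback inhibitors tested, 1 passed toward higher and 2 toward lower expression against parental cells. Against Ctrl cells 0 passed by edgeR, 0 had an unadjusted p-value under 0.05 and 0 passed by DESeq2. IL17RD, a membrane inhibitor of the pathway, was lower than parental in both p53 KO cells (-1.42, edgeR adjusted p = 0.00722) and Ctrl cells (-1.18, edgeR adjusted p = 0.0177). SPRED3 passed in Ctrl against parental cells alone (-0.78, edgeR adjusted p = 0.0397), on 25, 31 and 24 counts in the parental and 10, 16 and 21 counts in the Ctrl libraries. Of 8 other MAP kinase phosphatases tested, 1 passed toward higher expression against parental cells, and 1 toward higher and 1 toward lower against Ctrl cells. PTPRR, a tyrosine phosphatase that binds ERK, had 6, 5 and 7 counts in the parental, 2, 2 and 5 counts in the Ctrl and 76, 96 and 44 counts in the p53 KO libraries, with log2 fold changes of 3.50 and 4.48 (edgeR adjusted p = 4.77e-05 and 8.37e-06). Like RPS6KA2, PTPRR passed the filter only through the p53 KO libraries, so its values are description only. BTC, NRG1, RPS6KA2, RASAL1 and PTPRR, and IER3 described next, are like DUSP6 and EGR1 among the genes the study listed as changed on these libraries.

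Of 12 other immediate-early genes tested, 0 passed toward lower expression against both controls by edgeR. This is near the share of 5.25% among all genes tested, so it does not set EGR1 apart. Against Ctrl cells FOS, JUNB and MYC passed toward lower and JUN, IER3 and ATF3 toward higher expression. Of 12 tested, 2 passed toward higher and 0 toward lower expression against parental cells (1 had an unadjusted p-value under 0.05 in the latter direction and DESeq2 called 1), and 3 and 3 against Ctrl cells, with medians of 0.14 and 0.00123. IER3 was higher by 0.95 and 2.21 (edgeR adjusted p = 0.000179 and 2.68e-07) and its log2 fold change from parental to Ctrl was -1.27 (edgeR adjusted p = 3.08e-05), in the order Ctrl, parental, p53 KO seen for DUSP4 and DUSP6. ATF3, a stress-responsive factor, was higher by 1.24 and 1.38 (edgeR adjusted p = 9.11e-05 and 1.86e-05).
Of 7 ETS and SRF factors, 1 passed toward higher expression against parental cells, and 3 toward higher and 1 toward lower against Ctrl cells. ETV1, a relative of ETV4 and ETV5, had 5, 2 and 3 counts in the parental, 5, 14 and 16 counts in the Ctrl and 68, 50 and 20 counts in the p53 KO libraries, with log2 fold changes of 3.66 and 1.91 (edgeR adjusted p = 0.000375 and 0.00219). ETV1 too passed the filter only through the p53 KO libraries, so its values are description only. SRF, which binds CArG boxes, had log2 fold changes of -0.18 and 0.03 (edgeR adjusted p = 0.165 and 0.832).
Of 5 other ERK output genes, 2 passed toward higher and 1 toward lower expression against parental cells, and 2 toward higher against Ctrl cells. EPHA4 (an ephrin receptor) was at 0.68 and 1.28 (edgeR adjusted p = 0.00412 and 5.07e-05) and PLAUR (the urokinase receptor) at 0.56 and 0.74 (edgeR adjusted p = 0.00606 and 0.000623). Between Ctrl and parental cells the 8 lists gave 10 genes toward higher and 13 toward lower expression of 74 tested.

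**Figure D4:**
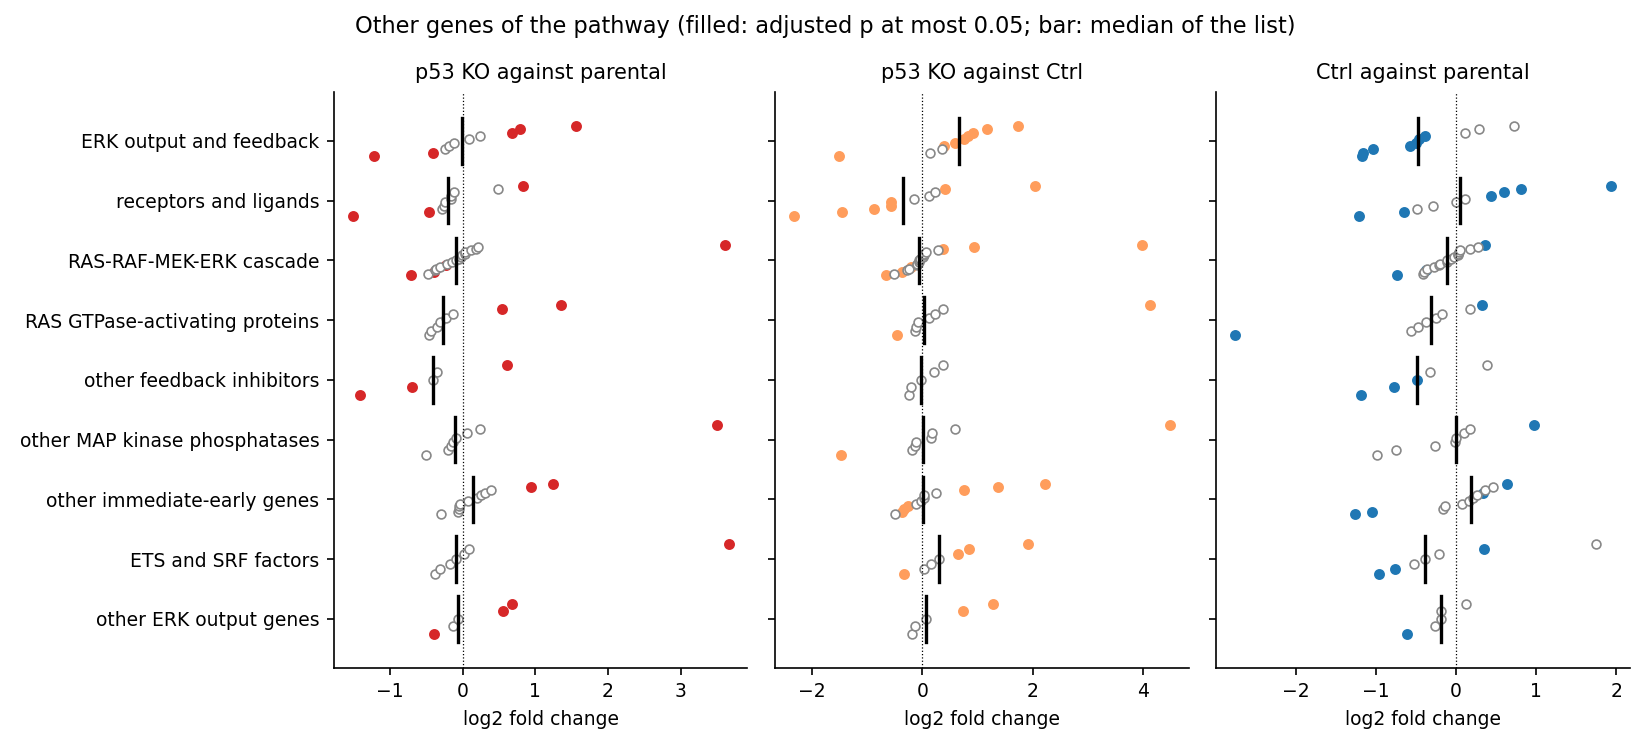
Log2 fold changes (horizontal axis) of the tested genes of each list in the 3 comparisons, filled where the adjusted p-value was at most 0.05, with a black bar at the median of the list. The ERK output and feedback genes have a median of 0.67 in p53 KO against Ctrl and of -0.48 in Ctrl against parental, and RPS6KA2, PTPRR and ETV1 are the points above 3 in p53 KO against parental cells. These last genes passed the filter on low counts only through the p53 KO libraries.

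For the members that passed against both controls, the genes with the most similar pattern over the 9 libraries were named. Candidates were the 10549 genes with a mean log2 CPM above 2. Likeness was measured by the root mean square difference of log2 CPM after each gene was centred on its mean. Nearest to EGR1 were FBXO32 (0.13), COL4A5 (0.16) and PCDH7 (0.19), where the SD of EGR1 itself was 0.70. Nearest to DUSP6 were ENDOD1 (0.0831), PRSS23 (0.10) and CHST15 (0.14), beside an SD of 0.76. Nearest to DUSP4 were FSCN1 (0.0767), SLC38A5 (0.10) and HLA-B (0.10), beside an SD of 0.52. For SPRY2, with its low counts, the nearest genes CUTC, DHX58 and AVPI1 were farther away, at 0.28 to 0.30 beside an SD of 0.69. PCDH7, ENDOD1 and PRSS23 are also on the list of changed genes from the study. The list of no member held another member, but SPRY2, at a mean log2 CPM of 0.45, was not a candidate. These distances describe the libraries without a test.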

How the data were processed

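RNA was measured in 9 A431 libraries of 3 groups. By the account of the paper and the submitters' processing notes, poly(A) strand-specific libraries were sequenced as paired-end reads of 75 bp, aligned with STAR 2.5.1b to GRCh38 and counted per gene with featureCounts on an Ensembl annotation. The authors deposited raw counts without normalization. The strand setting of the counting is not given in the sources used here, so reads of a gene and an antisense partner may be mixed.

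The analysis used edgeR 4.0.16 under R 4.3.3. Genes were filtered with filterByExpr at a minimum count of 10, normalized by TMM, and fitted with 1 mean per group over all 9 libraries. Groups were compared by the quasi-likelihood F test, whose F statistic also gave the standard errors, and p-values were adjusted by Benjamini-Hochberg over every gene that was tested. The study used DESeq2, which served here as an alternative (1.42.0). Log2 CPM used a prior count of 2. Depths cover counting error only. Totals per library were 19783778 to 29840452 counts. Positions and exon lengths come from GENCODE 44 (GRCh38), and promoters from RefSeq. Scripts were tested on simulated data. The level of the targeted gene is not reported here. Figures were drawn with matplotlib 3.10.9.

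The members and lists were chosen with earlier results of these data known. Named from the other lists were up to 5 genes that passed against both controls, ranked by mean size of change, or else up to 2 that passed in any comparison. By this rule the marker lists gave CDH1, at -0.32 and -0.33 in p53 KO against parental and Ctrl cells (edgeR adjusted p = 0.0245 and 0.0140), and PECAM1, at 1.68 in Ctrl against parental cells (edgeR adjusted p = 0.0250) with at most 0.458 CPM in any library. EGFR and SRF fall outside this rule and were added with their values known. PECAM1 passed the filter only through the Ctrl libraries, where it is high, so its value is description only. Alternatives were DESeq2, its size factors in edgeR, 2 other filters, a block for the replicate number, a fit of the 2 groups compared alone, 2 added thresholds on the fold change, and each library left out in turn.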

Additional observations from a re-analysis of the deposited data

Results flagged for a closer look

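DUSP4 and DUSP6 were singled out because p53 KO and Ctrl cells differed from parental cells in opposite directions. A difference between p53 KO and Ctrl cells follows from that choice and is given as a value, without a test. DUSP4 was higher in p53 KO cells (log2 fold change 0.79) and lower in Ctrl cells (-0.39), with 1.17 for p53 KO against Ctrl cells. DUSP6 was at 0.68 in p53 KO and -1.04 in Ctrl cells, with 1.72 for p53 KO against Ctrl cells. All 3 p53 KO libraries were above, and all 3 Ctrl libraries below, every parental library for both genes. The genes within 10 Mb of DUSP4 had medians of 0.47 in p53 KO and -0.02 in Ctrl cells, and those of DUSP6 of 0.00458 and -0.16.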

How the results depend on the processing

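No log2 fold change of the 10 genes changed sign in any of 15 alternatives run for each of 30 values. Of these 450 values 424 stayed on their side of the threshold, 17 lost and 9 gained it. The 4 genes called against both controls (DUSP4, DUSP6, SPRY2 and EGR1) were also called with DESeq2, its size factors, both other filters, the replicate block and only the 2 groups compared, and 3 of them without p53 KO replicate 2 or 3, where SPRY2 was lost. A log2 fold change of at least 1 as well left 2 genes against parental cells, 3 against Ctrl cells, 3 in Ctrl against parental cells and 1 (EGR1) against both controls, and one over 1.5 left 1, 2, 0 and 0. With each library left out in turn these counts ranged from 4 to 6, from 7 to 9, from 5 to 8 and from 3 to 4. The replicate block gave 5, 8, 5 and 4, with DUSP4 (adjusted p = 0.0682) and SPRED1 (adjusted p = 0.0516) lost in Ctrl against parental cells. Replicate numbers did not pair the libraries: deviations from the group means correlated between -0.348 and 0.0409 for the same number, and 0 of 9 libraries correlated best with its own number. Over all genes tested, the calls moved from 2631 against parental cells to 4831 with only the 2 groups compared and to 4944 without Ctrl replicate 1. They moved to between 1568 and 1786 without any 1 of the parental or p53 KO libraries. Against Ctrl cells they moved from 4240 to between 3100 and 5162 without 1 library. In Ctrl against parental cells they moved from 2943 to 1691 with the replicate block, to 1869 with only the 2 groups compared and to between 1379 and 4375 without 1 library. The causes were not tested. Depth limits SPRY2, which had 15 to 62 counts per library.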

Other observations

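Among the other genes of the pathway, ARAF and ELK1 were chosen after their values were seen. ARAF, a RAF kinase, and ELK1, an ETS partner of SRF at CArG boxes, lie on chromosome X from 47561205 to 47571908 and from 47635521 to 47650604. ARAF had 76.3, 77.2 and 74.2 CPM in the parental, 51.9, 43.3 and 42.3 CPM in the Ctrl and 83.2, 82.8 and 97.2 CPM in the p53 KO libraries. ELK1 had 60.6, 60.4 and 59.5 CPM in the parental, 36.5, 36.0 and 34.0 CPM in the Ctrl and 64.0, 62.8 and 64.6 CPM in the p53 KO libraries. Both were lower in every Ctrl library than in any other library. In Ctrl against parental cells the log2 fold change was -0.73 for ARAF (edgeR adjusted p = 0.000533) and -0.76 for ELK1 (edgeR adjusted p = 3.35e-05). The 72 genes tested within 10 Mb of ARAF had a median of -0.59 in this comparison, with 10 of them above 0, and the 73 of ELK1 a median of -0.58. The part of this regional shift in both genes was not tested.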
